A study of Gossypium barbadense and Gossypium hirsutum with 4 samples.

Results

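A set of 61 probe sets carried signal in elongating fibers of *G. barbadense* (*Gb*) and none above a low floor in fibers of *G. hirsutum* (*Gh*), among 24029 probe sets compared (0.254%). They were chosen by their values on all 4 arrays: a log2 signal of 6 or more on both *Gb* arrays (V.1 and V.2) and below 4 on both *Gh* arrays (G.29 and G.30). Affymetrix control probe sets (103 of 24132) were left out of the 24029. Those 24029 still hold 109 probe sets with the name prefixes GarAffx, GbaAffx and GhirRNA, which the rule leaves out of the set, and 52 reporter probe sets (RPTR), and 0 of either kind met the cuts. Since these values selected the probe sets, their levels in the genotypes and the differences between them are given as a description and support nothing further. No detection calls were used, so that a signal below 4 is a low signal on this scale and not a statement that the transcript is absent.

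*Gb* was represented by the variety VH8-4602 and *Gh* by the variety Guazuncho 2, both untreated plants raised in soil in a heated glasshouse with natural light. Fiber was taken at 11 days post-anthesis (dpa) by the labels and the methods, and the results text of the study gives a slightly younger age. The 2 arrays of a genotype are called independent replicates in the methods, each from a pool of RNA of 4 plants. With 1 variety per species, variety and species cannot be told apart, and in RNA from a whole tissue fewer cells of a type and less RNA per cell cannot be told apart. The array medians were 4.26 and 4.28 in *Gb* and 4.36 and 4.34 in *Gh* (G.29 and G.30), and Pearson's r over the 24029 probe sets was 0.998 between the arrays of either genotype. Of 14 probe sets with names of genes typical of fiber, 11 were at 6 or more on all 4 arrays, as were 2 of 3 with names typical of green tissue and the 1 with a name typical of seed. These lists could only be drawn from probe sets that are higher in *Gh*, and the part of other tissues in the results was not tested.

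A cotton fiber is a single epidermal cell of the seed coat that elongates for weeks after flowering before its wall thickens with cellulose. *G. hirsutum* and *G. barbadense* are both allotetraploids. Most of their genes are present as homoeologs, one from an A-genome and the other from a D-genome ancestor, and *G. raimondii* is a living relative of the D-genome ancestor. The cotton array is built from sequences of several species, and the name of a probe set records its source. The prefix Ghi or GhiAffx marks a sequence of *G. hirsutum*, Gra or GraAffx one of *G. raimondii*, GarAffx one of *G. arboreum* and GbaAffx one of *G. barbadense*. The number after the prefix is a sequence cluster and the next number a sub-cluster, so that probe sets with the same prefix and cluster number were designed from related sequences. Names that end in _s_at, _x_at or _a_at belong to probe sets that can hybridize with more than 1 transcript. The sources used here do not say what the tags S1 and A1 in the names stand for. The annotation used here (1159 rows) held only probe sets higher in *Gh*, so that it could hold 0 of the 61 by its make-up. The paper describes an annotated list of genes up-regulated in either genotype. Whether that list names any of the 61 was not tested. The *G. barbadense* gene table of RefSeq shares no identifier with the probe sets, so its 0 matches carry no information. The 61 are therefore named by their identifiers, and no function is given to them.

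The 61 probe sets had moderate signals in *Gb*. On V.1 they spanned 6.08 to 10.80 with a median of 7.33, and on V.2 6.02 to 10.71 with a median of 7.39. On G.29 they spanned 2.13 to 3.99 with a median of 2.93, and on G.30 2.05 to 3.99 with a median of 3.02. Their medians stood at percentile 64.8 and 64.9 of all probe sets on the *Gb* arrays, against 41.3 and 42.2 on the *Gh* arrays. The mean *Gb* signal had a median of 7.31, below the median of 9.44 of the 10081 probe sets at 6 or more on both *Gb* arrays. Of those 10081, 2968 (29.4%) exceeded the highest of the 61. By mean *Gb* signal, 22 of the 61 lay between 6 and 7, 18 between 7 and 8, 12 between 8 and 9, 3 between 9 and 10 and 6 between 10 and 11. The plot of the signal on each array shows the probe sets in this order.

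**Figure D1:**
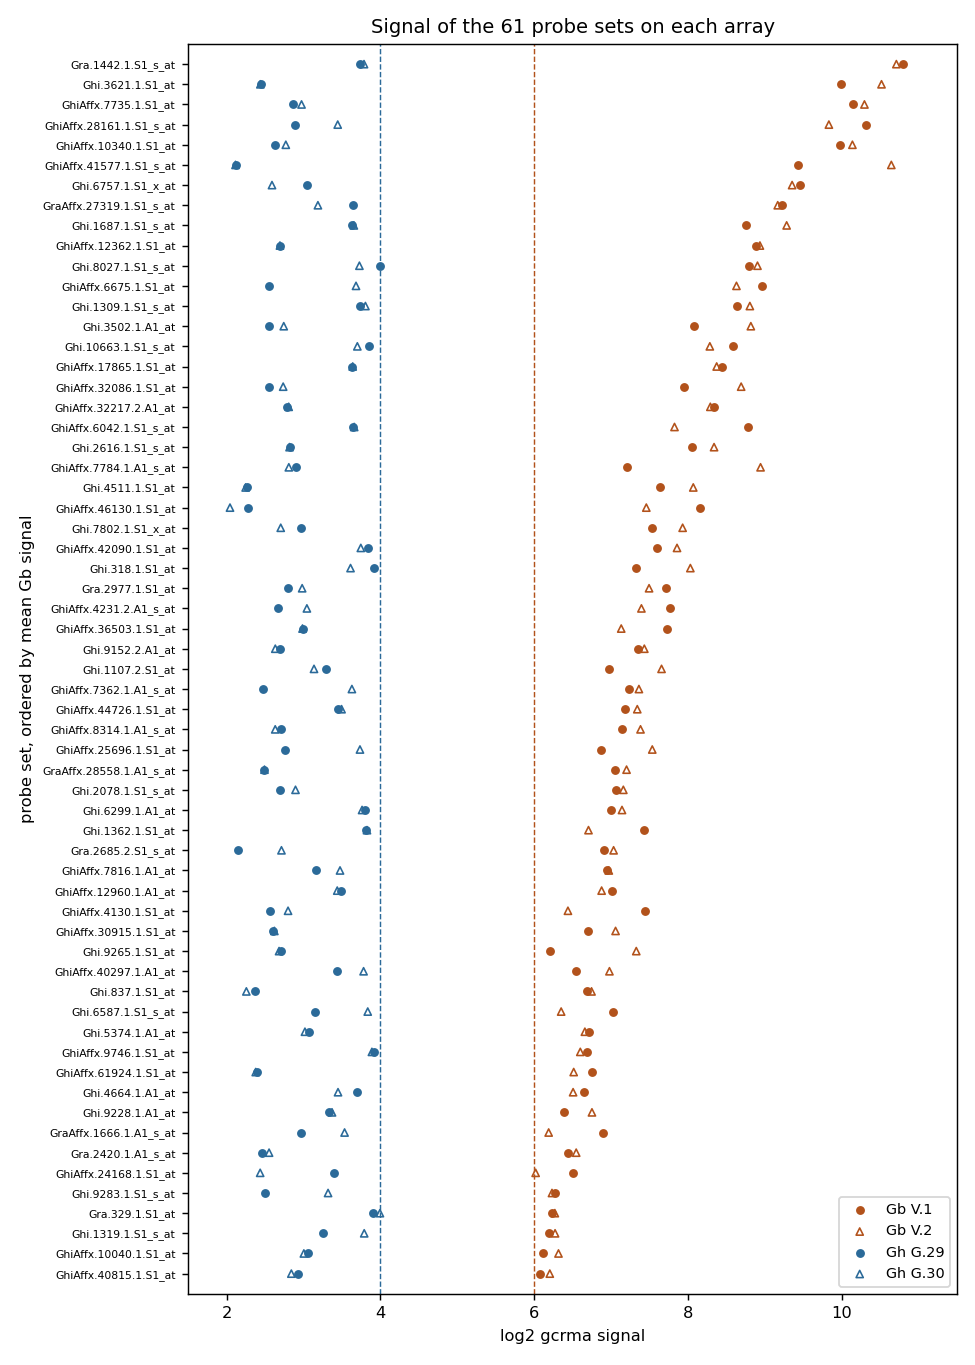
Log2 gcrma signal (x axis) of each of the 61 probe sets (y axis, ordered by mean Gb signal) on the 2 Gb arrays (orange, V.1 circles and V.2 triangles) and the 2 Gh arrays (blue, G.29 circles and G.30 triangles), with dashed lines at the cuts of 4 and 6 that chose them. The Gb signals spread from 6.02 to 10.80, whereas the Gh signals stay between 2.05 and 3.99.

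The highest signal of the set belonged to Gra.1442.1.S1_s_at, a probe set designed from *G. raimondii*, with 10.80 and 10.71 in *Gb*, against 3.74 and 3.79 in *Gh*. Taken against the floor of 4, which stands in for the *Gh* signal in every such bound below, its signal was at least 108-fold higher in *Gb*. Ghi.3621.1.S1_at had 9.98 and 10.51 in *Gb*, against 2.45 and 2.44 in *Gh* (at least 75.9-fold). Both were bright on each *Gb* array and below the floor on each *Gh* array.

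The other 4 with a mean above 10 were all of the prefix GhiAffx. GhiAffx.7735.1.S1_at had 10.15 and 10.29 in *Gb*, against 2.86 and 2.98 in *Gh*. GhiAffx.28161.1.S1_s_at had 10.31 and 9.83 in *Gb*, against 2.89 and 3.45 in *Gh*. GhiAffx.10340.1.S1_at had 9.97 and 10.13 in *Gb*, against 2.63 and 2.77 in *Gh*. These 3 were close to each other in level on both *Gb* arrays. GhiAffx.41577.1.S1_s_at, with 9.43 and 10.64 in *Gb* against 2.13 and 2.12 in *Gh*, had *Gb* arrays 1.21 apart, and its signal was at least 65.6-fold higher in *Gb*.

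The next 6 by level had means between 8.80 and 9.40. Ghi.6757.1.S1_x_at had 9.45 and 9.35 in *Gb*, against 3.04 and 2.59 in *Gh*. GraAffx.27319.1.S1_s_at had 9.22 and 9.16 in *Gb*, against 3.64 and 3.19 in *Gh*. Ghi.1687.1.S1_s_at had 8.75 and 9.28 in *Gb*, against 3.63 and 3.65 in *Gh*. Of the 12 brightest, 7 have names ending in _s_at or _x_at. GhiAffx.12362.1.S1_at had 8.88 and 8.93 in *Gb*, against 2.69 and 2.69 in *Gh*. Ghi.8027.1.S1_s_at had 8.79 and 8.90 in *Gb*, against 3.99 and 3.73 in *Gh*. GhiAffx.6675.1.S1_at had 8.96 and 8.63 in *Gb*, against 2.55 and 3.68 in *Gh*. Its *Gh* arrays were thus farther apart than its *Gb* arrays.

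Over the 61, the difference between the genotypes (*Gb* minus *Gh*, log2) had a median of 4.44 and ran from 2.30 to 7.91, beside a median of 0.04 over all probe sets, but its size rests on *Gh* signals below the floor. The gap between the lower *Gb* array and the higher *Gh* array, which the rule requires to exceed 2, was 2.23 to 7.53. Against the floor the signal was at least 4.40-fold to at least 108-fold higher in *Gb*, with a median bound of 9.94-fold. All 61 differed from 0 at an adjusted p under 0.05 in limma (Benjamini-Hochberg over all probe sets, n = 2 arrays per genotype), where 11.4% of all probe sets were called higher in *Gb*. The rule used the same contrast, so nothing is read from this count. With 1 array left out, the residual spread comes from the other genotype alone, so no count is given for those fits. Over 38 named probe sets of the 61, the differences were then 2.28 to 8.52 without a *Gb* array and 2.25 to 7.92 without a *Gh* array. Signs of RNA quality differed between the genotypes in the same arrays. The signal at the 5′ end of the actin control minus that at its 3′ end was -3.03 and -3.07 in *Gb*, against -2.52 and -2.18 in *Gh* (G.29 and G.30). For ss1 it was -4.87 and -5.04 in *Gb*, against -4.62 and -3.62 in *Gh*. For ubq11 it was -1.94 and -1.80 in *Gb*, against -1.79 and -1.36 in *Gh*. The means of these 2 controls differed by -0.84 (ss1) and -0.30 (ubq11) between *Gb* and *Gh*, with G.30 farther from the *Gb* arrays than G.29 was. The part of this shift in the results was not tested.

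The *Gh* signals were all below the floor, where the background step of gcrma shapes the values and the order of different probe sets is not reliable, so the following are given as they stand. The mean *Gh* signal of the 61 was below 2.5 in 8, below 3 in 31 and below 3.5 in 45. Both *Gh* arrays were at 3.5 or more in 13, and at least 1 of them in 22. The median mean *Gh* signal was 2.99, against 2.29 for the other 11425 probe sets below 4 on both *Gh* arrays. With the genotypes exchanged (6 or more on both *Gh* arrays and below 4 on both *Gb* arrays), 118 probe sets passed, with a median mean *Gb* signal of 2.76, against 2.33 for the others below 4 on both *Gb* arrays.

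The label of transcripts seen only in *Gb* describes these cuts, which sit in a continuous range of signals. Of the 10081 probe sets at 6 or more on both *Gb* arrays, 9633 (95.6%) were also at 6 or more on both *Gh* arrays, 387 lay in between and 61 (0.605%) were in the set. The exchanged cuts took 118 of 10126 (1.17%). Of the 11486 probe sets below 4 on both *Gh* arrays, 11063 (96.3%) were also below 4 on both *Gb* arrays and 423 were not. The set is the upper end of these 423, taken by the lower of the *Gb* arrays. By mean *Gb* signal, 189 of the probe sets below the floor in *Gh* lay between 4 and 5, 62 between 5 and 6 and 65 at 6 or more, with no gap in the counts at the cut of 6. The 118 of the exchanged cuts reached higher signals. Their mean had a median of 7.64 and a maximum of 12.76 in *Gh*, 46 of them (39.0%) were at 8 or more and 8 at 11 or more. Of the 61, 21 (34.4%) were at 8 or more and 0 at 11 or more.

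**Figure D2:**
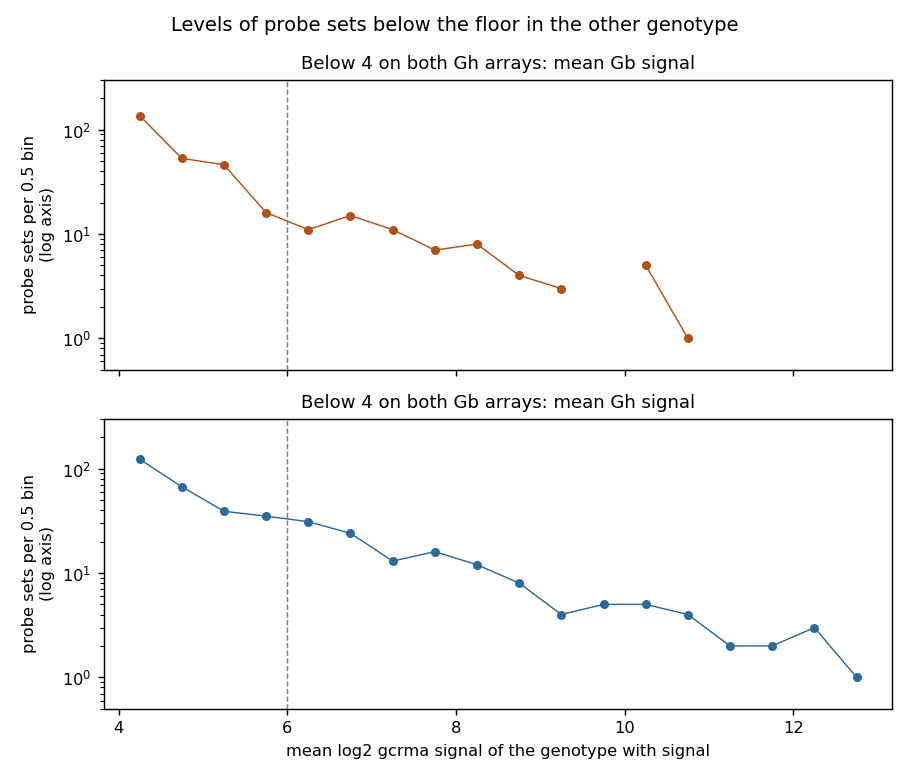
Number of probe sets (y axis, log axis) in bins of 0.5 of mean log2 gcrma signal (x axis), above for probe sets below 4 on both Gh arrays by their mean Gb signal and below for probe sets below 4 on both Gb arrays by their mean Gh signal, with the cut of 6 as a dashed line and empty bins left blank. The counts run on across the cut without a gap, and probe sets low in Gh end below 11 whereas those low in Gb reach 12.76.

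The values next to the cuts show how close the choice was. Just inside the cut on *Gb* were GhiAffx.24168.1.S1_at (6.50 and 6.02), GhiAffx.40815.1.S1_at (6.08 and 6.20), GhiAffx.10040.1.S1_at (6.11 and 6.31) and GraAffx.1666.1.A1_s_at (6.89 and 6.19). Just outside it were Ghi.7713.1.S1_at (6.26 and 5.99), GhiAffx.63289.1.S1_s_at (5.96 and 6.11), Gra.2378.1.A1_s_at (5.88 and 6.06) and Gra.511.1.A1_s_at (5.84 and 5.86). Each of these outside had both *Gh* arrays below 4, so that they were missed by 0.01 to 0.16 on their lower *Gb* array. Just inside the cut on *Gh*, by the arrays G.29 and G.30, were Gra.329.1.S1_at (3.90 and 3.99), Ghi.8027.1.S1_s_at (3.99 and 3.73), GhiAffx.9746.1.S1_at (3.92 and 3.89) and Ghi.318.1.S1_at (3.91 and 3.61). Just outside it were Ghi.3229.1.A1_at (4.00 and 3.85), Ghi.592.1.S1_at (3.60 and 4.01), Ghi.5386.1.A1_at (4.02 and 3.84) and Ghi.9631.1.S1_at (3.78 and 4.04). The *Gb* signals of the last 4 were 6.16 to 7.08, and Ghi.8027.1.S1_s_at, inside, had 8.79 and 8.90.

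By design species, 53 of the 61 probe sets (86.9%) came from *G. hirsutum* sequences and 8 (13.1%) from *G. raimondii*. The array holds more *G. raimondii* probe sets than that (29.4% of those compared), but few of them were bright in *Gb* fiber. Among the probe sets at 6 or more on both *Gb* arrays, 87.1% were designed from *G. hirsutum* and 12.2% from *G. raimondii*, shares close to those of the set. Per 1000 such bright probe sets, 6.04 of *G. hirsutum* and 6.50 of *G. raimondii* design were in the set. With the genotypes exchanged, the numbers per 1000 bright in *Gh* were 12.5 and 6.48 for the designs from *G. hirsutum* and *G. raimondii*.

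The numbers by prefix are given as a description, since differences between the 4 prefixes were not tested and some rest on few probe sets. GhiAffx gave 29 probe sets, 8.23 per 1000 bright in *Gb*, and Ghi gave 24, 4.57 per 1000. Gra gave 5 (7.36 per 1000) and GraAffx 3 (5.43 per 1000). With the genotypes exchanged, Ghi gave 67 and GhiAffx 43, at 12.6 and 12.3 per 1000 bright in *Gh*. The median of the mean *Gb* signal was 7.35 for Ghi, 7.43 for GhiAffx, 6.97 for Gra and 7.12 for GraAffx. The prefixes that were left out hold 69 (GarAffx), 36 (GbaAffx) and 4 (GhirRNA) probe sets, of which 73 were at 6 or more on both *Gb* arrays and 0 would have passed. The 36 of GbaAffx are the only probe sets on the array designed from *G. barbadense* sequences, and 23 of them were bright in *Gb*. Of all probe sets bright in *Gb* only 0.605% were in the set, so 23 are too few to read anything from the 0.

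**Figure D3:**
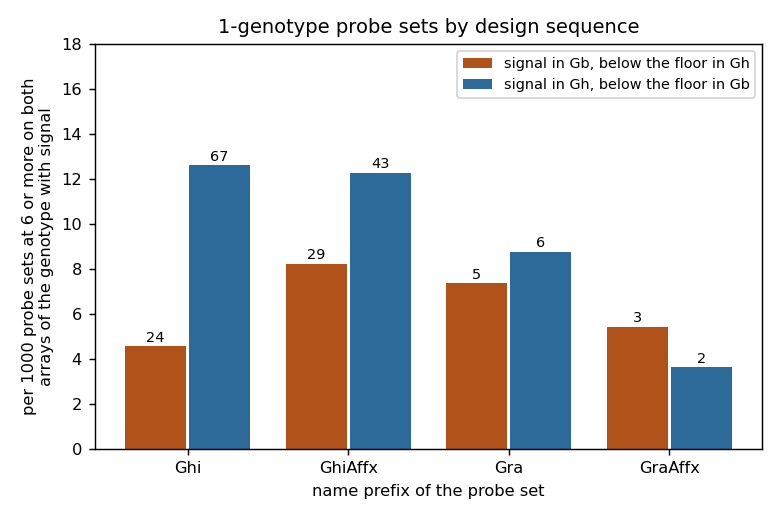
Probe sets that pass the cuts per 1000 probe sets at 6 or more on both arrays of the genotype with signal (y axis), by name prefix (x axis), orange for signal in Gb and below the floor in Gh and blue for the exchanged cuts, with the number of probe sets above each bar. Ghi gave 24 against 67 probe sets and GhiAffx 29 against 43, whereas Gra and GraAffx gave 5 against 6 and 3 against 2.

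The 8 probe sets designed from *G. raimondii* covered the whole range of levels. Gra.1442.1.S1_s_at and GraAffx.27319.1.S1_s_at, described above, were among the 8 brightest of the 61. Gra.2977.1.S1_at had 7.71 and 7.49 in *Gb*, against 2.80 and 2.98 in *Gh*. GraAffx.28558.1.A1_s_at had 7.05 and 7.20 in *Gb*, against 2.48 and 2.49 in *Gh*. Gra.2685.2.S1_s_at had 6.91 and 7.03 in *Gb*, against 2.15 and 2.71 in *Gh*. In these 3 the *Gb* arrays were 0.12 to 0.22 apart. GraAffx.1666.1.A1_s_at had 6.89 and 6.19 in *Gb*, against 2.97 and 3.53 in *Gh*. Gra.2420.1.A1_s_at had 6.44 and 6.55 in *Gb*, against 2.46 and 2.55 in *Gh*. Gra.329.1.S1_at had 6.23 and 6.27 in *Gb*, against 3.90 and 3.99 in *Gh*. It lay close to the cuts in both genotypes, and its signal was at least 4.75-fold higher in *Gb*.

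Of the 61, 37 (60.7%) have names ending in _at alone and 22 (36.1%) in _s_at, 2 end in _x_at and 0 in _a_at. Among all probe sets bright in *Gb*, 42.6% end in _at alone and 48.0% in _s_at, and among the 118 of the exchanged cuts 69.5% and 21.2% do. Both orientations of the cuts thus held a larger share of names ending in _at alone than the bright probe sets at large. Such names were also 53.0% of all probe sets and 7026 of the 11486 below 4 on both *Gh* arrays, the other condition of the rule. The share was not tested, and no trait of the set is read from it. The tag A1 is in 17 of the 61 names (27.9%), against 28.6% of the probe sets bright in *Gb* and 44.3% of all.

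Over the whole range of levels, the *Gb* arrays were farther apart for these probe sets than for others, except among the dimmest. These gaps are given as a description, since the rule used both arrays. The absolute gap between V.1 and V.2 had a median of 0.237 over the 61, against 0.127 over the other 7056 probe sets in the same range of mean *Gb* signal. It exceeded 0.5 in 17 of the 61 (27.9%), against 3.77% of the others, and exceeded 1 in 4 (6.56%), against 0.496%. The wider gap depended on the level. Between 6 and 7 the median gap was 0.136 in the 22 probe sets of the set and 0.170 in the others. Between 7 and 8 it was 0.320 in the set and 0.152 in the others, between 8 and 9 it was 0.291 and 0.122, and between 9 and 11 it was 0.164 and 0.107, with the set first each time. In the lowest bin both arrays had to pass the cut of 6, which leaves out probe sets with a wide gap there. V.2 was the higher array in 37 of the 61 (60.7%) and in 60.0% of the others, so that the set leaned to neither array more than the others did.

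On the *Gh* side the absolute gap between G.29 and G.30 had a median of 0.0973 in the set, against 0.0181 in the other probe sets below 4 on both *Gh* arrays. It exceeded 0.5 in 10 of the 61 (16.4%), against 2.13%. This depended on the level too, since 5556 of the 11425 others had a mean *Gh* signal of 2 to 2.5, against 8 of the set. There the medians were 0.0180 in the set and 0.0174 in the others. At 2.5 to 3 they were 0.112 and 0.0417, at 3 to 3.5 they were 0.382 and 0.106, and at 3.5 to 4 they were 0.0817 and 0.104. The 118 probe sets of the exchanged cuts had a median gap of 0.237 between the *Gh* arrays, with a maximum of 0.821. None of the 118 exceeded 1. No gap is given here for other probe sets bright in *Gh*, so whether the gaps of the 118 are wide for their level was not tested.

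**Figure D4:**
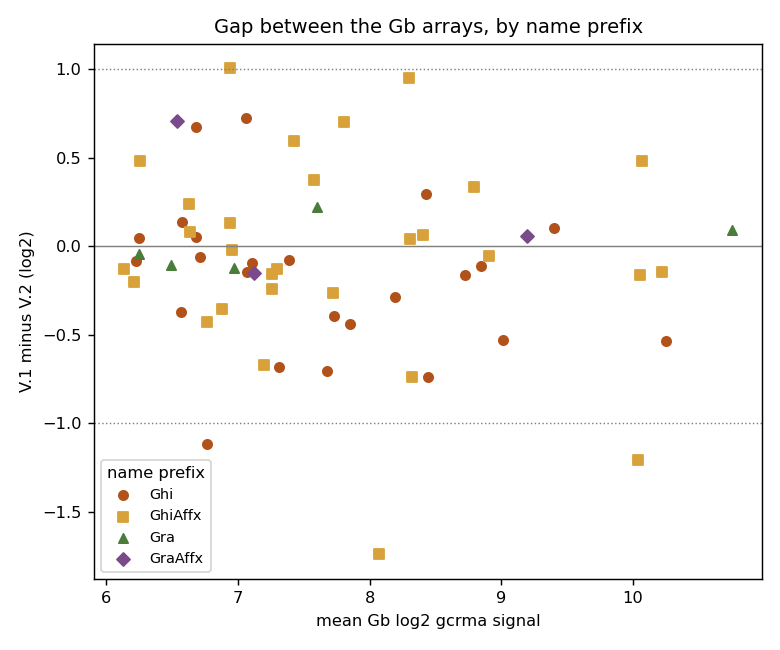
Log2 signal on V.1 minus that on V.2 (y axis) against the mean Gb log2 gcrma signal (x axis) of the 61 probe sets, with colour and shape for the name prefix and dotted lines at a gap of 1 either way. The gaps reach 1.74 in size and 4 of the 61 exceed 1, whereas the widest among the 8 of Gra and GraAffx is 0.71.

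The widest gap was that of GhiAffx.7784.1.A1_s_at, with 7.20 on V.1 and 8.94 on V.2, against 2.90 and 2.81 in *Gh*. It was followed by GhiAffx.41577.1.S1_s_at (gap 1.21) and Ghi.9265.1.S1_at, with 6.21 and 7.33 in *Gb* against 2.71 and 2.68 in *Gh*. GhiAffx.4130.1.S1_at was higher on V.1, with 7.44 and 6.44 in *Gb* against 2.56 and 2.80 in *Gh*, and so was GhiAffx.6042.1.S1_s_at, with 8.77 and 7.82 in *Gb* against 3.65 and 3.66 in *Gh*. The direction of the wide gaps was thus mixed. The narrowest gaps were 0.0234 in GhiAffx.7816.1.A1_at (6.95 and 6.97 in *Gb*, against 3.16 and 3.48 in *Gh*) and 0.0416 in Gra.329.1.S1_at.

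The 61 probe sets belong to 61 different clusters, so that no cluster was represented by more than 1 of them. In 48 the cluster holds no other probe set, and 13 (21.3%) have 19 mates, that is, other probe sets with the same prefix and cluster number. Of all probe sets 30.5% have a mate, of those bright in *Gb* 26.4% and of the 118 of the exchanged cuts 29.7%. None of the 19 mates met the rule. Of the 19, 13 were below 4 on every array, 2 were at 6 or more on all 4 arrays, 4 lay in between and 0 were bright in *Gh* with *Gb* below the floor. The mates had no part in choosing the set, but they were measured on the same RNA.

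**Figure D5:**
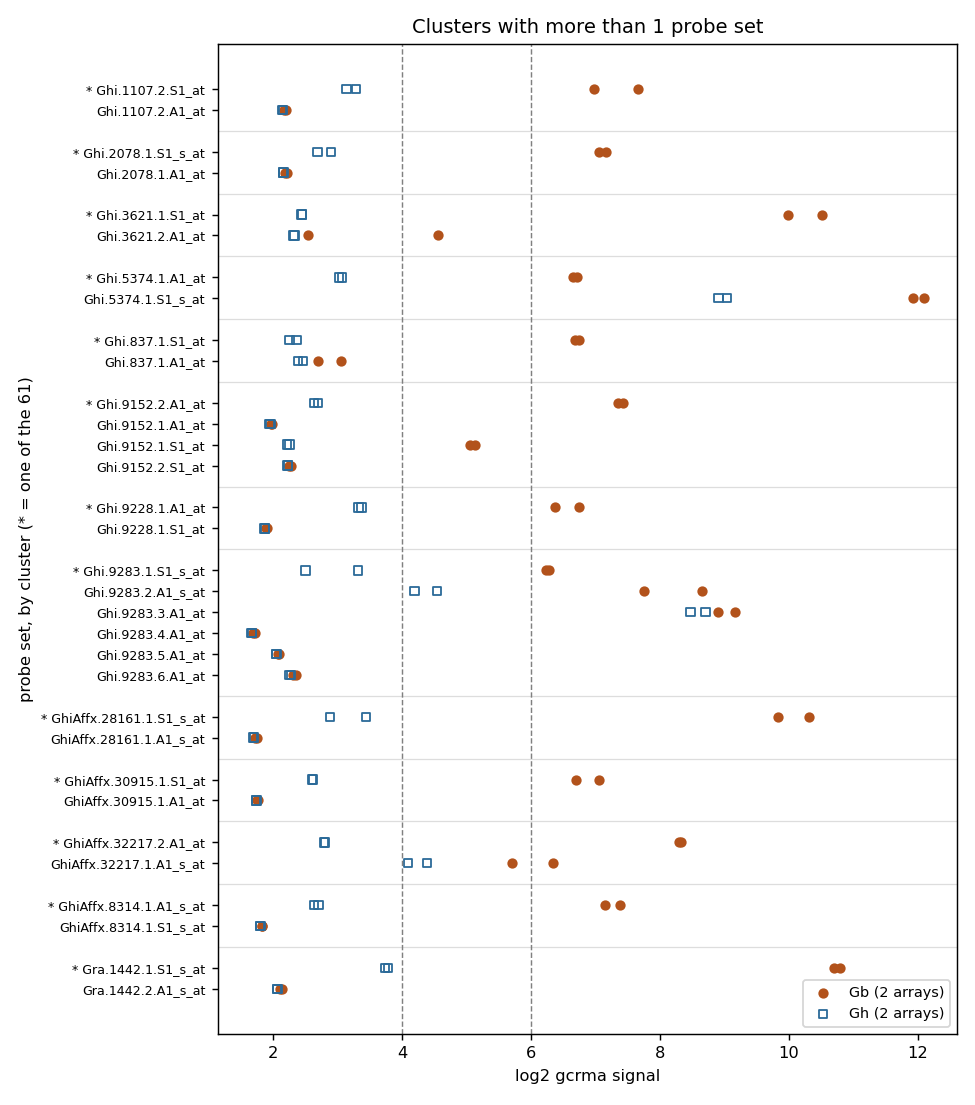
Log2 gcrma signal (x axis) of the 13 probe sets that have a cluster mate (marked with an asterisk) and of their 19 mates (y axis, grouped by cluster), with orange circles for the 2 Gb arrays, blue squares for the 2 Gh arrays and dashed lines at 4 and 6. Most mates sit at 1.67 to 3.06 on every array, and 2 mates, in the clusters Ghi.5374 and Ghi.9283, are at 6 or more in both genotypes.

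Most mates thus gave only low signals. The 13 below the floor had signals of 1.67 to 3.06, and their differences between the genotypes were 0.02 to 0.45. For 8 of the 13 probe sets with mates, among them the bright Gra.1442.1.S1_s_at and GhiAffx.28161.1.S1_s_at, every mate was of this kind. The mate of GhiAffx.28161.1.S1_s_at, GhiAffx.28161.1.A1_s_at, had 1.75 and 1.72 in *Gb*, against 1.71 and 1.69 in *Gh*. The mate of Gra.1442.1.S1_s_at, Gra.1442.2.A1_s_at, had 2.14 and 2.10 in *Gb*, against 2.07 and 2.06 in *Gh*. A mate at the floor is common on this array. Mates were below 4 on every array in 68.4% of the 19, in 41.9% of the 105 mates of the exchanged set and in 34.6% of the 6528 mates of the other probe sets bright in *Gb*.

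Many of these mates shared the sub-cluster. In 9 pairs the mate shared the sub-cluster, and each of these pairs joined a name tagged S1 with a name tagged A1. Whether names with different tags read the same transcript was not tested. A low mate in these pairs is therefore not read as disagreement about a transcript. In 8 of these 9 the mate was below the floor on every array, against 90.5% of the 21 such mates of the exchanged set and 59.7% of the 1357 such mates of other probe sets bright in *Gb*. The tag of the brighter partner was not fixed. It was S1 in Ghi.1107.2.S1_at, with 6.97 and 7.65 in *Gb* against 3.29 and 3.14 in *Gh*, in Ghi.2078.1.S1_s_at, with 7.06 and 7.16 in *Gb* against 2.69 and 2.90 in *Gh*, and in GhiAffx.30915.1.S1_at, with 6.70 and 7.06 in *Gb* against 2.61 and 2.62 in *Gh*. It was A1 in Ghi.9228.1.A1_at, with 6.38 and 6.75 in *Gb* against 3.33 and 3.37 in *Gh*, and in GhiAffx.8314.1.A1_s_at, with 7.14 and 7.38 in *Gb* against 2.70 and 2.63 in *Gh*. In Ghi.837.1.S1_at, with 6.68 and 6.74 in *Gb* against 2.36 and 2.26 in *Gh*, the mate tagged A1 was the highest of the 13, with 2.70 and 3.06 in *Gb* against 2.47 and 2.39 in *Gh*. Of the 10 mates in another sub-cluster, 5 were below the floor on every array.

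The 2 mates that were bright in both genotypes bear on the label of a transcript seen only in *Gb* only if they read the same transcript as their partner. That was not tested, and in both pairs 1 name is tagged S1 and the other A1. Ghi.5374.1.A1_at had 6.71 and 6.66 in *Gb*, against 3.07 and 3.02 in *Gh*. Its mate of the same sub-cluster, Ghi.5374.1.S1_s_at, was far brighter, with 11.92 and 12.09 in *Gb*, against 9.04 and 8.91 in *Gh*. The mate was 8.18-fold higher in *Gb* (difference 3.03, standard error 0.09, adjusted p = 0.00367 from limma), the direction of Ghi.5374.1.A1_at too. For Ghi.5374.1.A1_at only a bound can be given, at least 6.43-fold, so that the sizes were not compared. The pair differed in the *Gh* signal, below the floor in one and bright in the other.

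Cluster Ghi.9283 held the most probe sets, 6, and they did not agree. Ghi.9283.1.S1_s_at had 6.27 and 6.23 in *Gb*, against 2.50 and 3.32 in *Gh*. Ghi.9283.3.A1_at had 9.16 and 8.90 in *Gb*, against 8.71 and 8.48 in *Gh*, a difference of 0.44 (standard error 0.14) that did not pass the test (adjusted p = 0.156 from limma). Ghi.9283.2.A1_s_at had 8.65 and 7.76 in *Gb*, against 4.19 and 4.54 in *Gh*, and was 14.3-fold higher in *Gb* (difference 3.84, standard error 0.39, adjusted p = 0.0175 from limma). The other 3 sub-clusters, Ghi.9283.4.A1_at, Ghi.9283.5.A1_at and Ghi.9283.6.A1_at, had signals of 1.67 to 2.36 over all arrays. The cluster thus ran from a nearly equal signal in both genotypes, through a signal higher in *Gb* with *Gh* just above the floor, to a signal below the floor in both.

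In 3 further clusters a mate rose above the floor in part. Ghi.9152.2.A1_at had 7.35 and 7.43 in *Gb*, against 2.70 and 2.63 in *Gh*, and its mate Ghi.9152.1.S1_at had 5.05 and 5.13 in *Gb*, against 2.25 and 2.22 in *Gh*. This mate was below the floor in *Gh* like its partner, with at least a 2.13-fold higher signal in *Gb* (adjusted p = 0.00203 from limma), and missed the rule only by its lower *Gb* level. Its other 2 mates were below the floor. GhiAffx.32217.2.A1_at had 8.33 and 8.29 in *Gb*, against 2.79 and 2.81 in *Gh*. Its mate GhiAffx.32217.1.A1_s_at had 5.71 and 6.34 in *Gb*, against 4.39 and 4.10 in *Gh*, and was 3.44-fold higher in *Gb* (difference 1.78, standard error 0.28, adjusted p = 0.0396 from limma). The mate of the bright Ghi.3621.1.S1_at, Ghi.3621.2.A1_at, had 4.56 and 2.54 in *Gb*, against 2.33 and 2.32 in *Gh*, and its difference did not pass (adjusted p = 0.377 from limma). Of the 19 mates, 4 passed the test, each higher in *Gb*, and 11.4% of all probe sets were called so. In all 19 both *Gb* arrays lay above both *Gh* arrays, which was also the case in 62.3% of all probe sets and in 83.3% of the 11063 below 4 on every array.

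The widest gap between the *Gh* arrays belonged to GhiAffx.7362.1.A1_s_at, named here after its values were seen, with 7.23 and 7.36 in *Gb*, against 2.47 and 3.63 in *Gh*. Together with 22 other probe sets of the set that have not been named, it spanned 6.19 to 8.64 on V.1 and 6.27 to 8.81 on V.2, against 2.27 to 3.85 on G.29 and 2.05 to 3.84 on G.30. None of these 23 has a cluster mate.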

How the data were processed

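Total RNA from 11 dpa fibers was hybridized to 4 Affymetrix cotton arrays. The deposited values are log2 signals that the authors computed from the scanner files with gcrma (listed as GCRMA in the submitters' processing notes; its version is not given in the sources used here), which corrects background from probe sequence, equalizes the arrays and summarizes each probe set. The lowest signals are therefore shaped by that background step. Every column was mapped to a sample by its label. The authors' own comparison columns (signals, differences and adjusted p-values of differing probe sets) were not used, apart from the names beside them.

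The rule was applied in Python 3.11.15. Over 24029 probe sets, limma 3.58.1 in R 4.3.3 (lmFit, eBayes with the default prior, no covariate, 1.10 prior degrees of freedom) was run two-sided with Benjamini-Hochberg adjustment at 0.05. The same fit was also run on simulated data, whose outcome is not given here, and nothing is read from it. With 2 arrays per genotype their number limits the precision, and p-values measure the spread between pools of plants. No batch is named. Folds against the floor are bounds, 2 to the power of the mean *Gb* signal minus 4.

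The members, lists and naming rule were chosen with earlier results of these data known. Named are the 12 highest by mean *Gb* signal, the 5 widest and 5 narrowest gaps between the *Gb* arrays, the 4 nearest to each cut on either side, the 12 that depart most from a mate, those with a mate bright in both genotypes, and all designed from *G. raimondii*. Mates were named because they share a cluster with these. Alternatives were other floors and minimums, 3 rescalings, probe sets of single transcripts, each array left out, a Bonferroni adjustment, a trended or robust prior, a filter on low signals narrower mates, and the methods' t-test, which takes 1 variance for all probe sets. Plots were drawn with matplotlib 3.10.9.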

Additional observations from a re-analysis of the deposited data

How the results depend on the processing

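The number of probe sets in the set followed the cuts. It was 39 with a floor of 3.5 and 124 with a floor of 5, and 103, 35 and 18 with a minimum of 5, 7 and 8 in *Gb*. It was 37 without names ending in _x_at, _s_at or _a_at, and 65 to 75 with 1 array left out. Rescaling gave 66 (array medians subtracted), 59 (cyclic loess) and 49 (hybridization controls). With floors of 3.5 and 5, 39 and 121 of those were called higher in *Gb* by limma, and without those names 37. With minimums of 5, 7 and 8 it was 99, 35 and 18. No such count is given with 1 array left out, since the residual spread then came from the other genotype alone. A Bonferroni adjustment called 7 of the 61 (10 of all probe sets), and the methods' t-test 53, since its limits on the variance left out 8 of the 61 and 1.84% of all probe sets.

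The count of mates bright in both genotypes (2) was 8 with a floor of 5, 5, 0 and 0 with minimums of 5, 7 and 8, 1 without those names, 1 for mates of the same sub-cluster only, and 2 to 4 with 1 array left out. The median gap between the *Gb* arrays stayed at 0.163 to 0.270 in each setting that kept both of them. Over all probe sets, limma called 2749 higher and 2131 lower in *Gb*. It called 1146 higher without those names and 1378 to 1991 higher with 1 array left out. The split was 3858 higher and 2121 lower after subtracting array medians, and 1990 higher and 5540 lower after scaling to the hybridization controls, which were 0.28 higher in *Gb*. The differences of the 38 named probe sets were 2.02 to 7.63 with the hybridization controls and 2.28 to 8.52 without a *Gb* array. The rule had required a gap of more than 2 between the genotypes, so their sign could hardly change and nothing is read from it. No paired analysis was possible because the labels of the genotypes share no replicate numbers. Signals near the floor have no reliable order, since no detection calls were used.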
